A study of Mus musculus with 12 samples.

Results

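NRF2, the transcription factor encoded by *Nfe2l2*, and 9 of its known target genes were followed through skin of *Cdc42* KO and WT mice with and without continuous treatment with zinc oxide nanoparticles (ZnO NPs). The members were chosen by name, as *Nfe2l2*, *Nqo1*, *Hmox1*, *Gclc*, *Gclm*, *Txnrd1*, *Srxn1*, *Slc7a11*, *Gsr* and *G6pdx*, which are 10 of the 52636 genes in the deposited count table. All 10 passed the expression filter, which kept 18822 genes. RNA-seq was performed on full-thickness dorsal skin of C57BL/6 mice aged 3 months, in 4 groups of 3 mice, on day 14. The WT group carried loxP-flanked *Cdc42* without Cre and received the vehicle, normal saline with HPMC (hydroxypropyl methylcellulose). The KO group received the same vehicle and carried Cre under the keratin K5 promoter with both *Cdc42* alleles flanked by loxP sites, so that the gene was deleted only in cells that use this promoter and stayed intact in the other cells of the skin. Mice of these genotypes that were treated continuously with ZnO NPs on shaved skin formed the KO+ZnO NPs group and the WT+ZnO NPs group. The comparisons address how the loss of *Cdc42* in the epidermis, a model of a weakened skin barrier, and ZnO NPs bear on the transcripts of the antioxidant response.

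NRF2 is the main activator of antioxidant and detoxifying genes. In unstressed cells the adaptor KEAP1 binds it and hands it to a CUL3 ubiquitin ligase for degradation, and electrophiles or oxidants that modify KEAP1 let NRF2 accumulate, pair with a small MAF protein and bind the antioxidant response element in its targets. BACH1, a haem-binding repressor, competes for the same element. In skin, NRF2 is known for protecting keratinocytes from ultraviolet light and chemicals. Because NRF2 is controlled largely at the protein level, the transcript of *Nfe2l2* is not a measure of its activity.

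Depth was similar in all groups, with total counts of 21076320 to 28867802 per library. The 8 keratinocyte markers summed to between 6635 and 25789 CPM (the count of a gene as its share of the library, scaled by edgeR's TMM factors) in the 12 libraries. *Cdc42* itself lay at 606 to 628 CPM in WT, 415 to 464 in KO, 311 to 350 in the WT+ZnO NPs-labelled libraries and 314 to 453 in KO+ZnO NPs. The level of the deleted gene in the WT+ZnO NPs group thus lay below WT and KO, which puts its label in doubt. *Cdc42* stays intact in other cells of the skin, so its level can also follow the mix of cells. A wrong label and a change in that mix cannot be told apart here. The group is named by its label throughout. Transcripts of the Y-linked genes *Ddx3y*, *Eif2s3y*, *Kdm5d* and *Uty* summed to 192 to 242 CPM in all 3 WT+ZnO NPs-labelled libraries and in replicate 1 of KO and of KO+ZnO NPs. The study's methods give the *Cdc42* KO mice as female and the labels give no sex, so these transcripts, which come from the male chromosome, go against the stated sex of the KO and KO+ZnO NPs libraries that carry them. The other 7 libraries, all 3 of WT included, carried *Xist* at 460 to 1033 CPM. The WT group therefore differs from the WT+ZnO NPs-labelled libraries in these transcripts as well as in treatment, and the 2 differences cannot be told apart in a comparison of these groups alone.

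The promoters of the members are shown first because the antioxidant response element is what NRF2 reads. RefSeq promoter windows on GRCm38.p6, which span 250 bases before and 50 bases after an annotated start, were found for 7 of the 10 members, in 9 windows. *Hmox1*, *Gclc* and *Gsr* had none. The core of the element was searched as TGACNNNGC and, in its second form, as TGAGNNNGC, on both strands. With TCA at its N letters the second form also holds the AP-1 motif TGAGTCA. In all 32851 windows of this length, 12.4% held the first form, 17.6% the second and 27.8% either, or 30.8% of 27025 genes. Among the members, 6 of 7 held a match, which is a description of letters and not of bound factor. Positions are counted from the start, from the first base of the match on the strand of the gene. The upstream 250 bases of *Gclm* and *Srxn1* are printed because these 2 genes moved in opposite directions after ZnO NPs and both hold the element. The matches are in capitals. The *Gclm* stretch is chr3:122245307-122245556 on the plus strand, with the match at -134, and the *Srxn1* stretch is chr2:152105274-152105523 on the plus strand, with matches at -158 and -45, the latter also holding the AP-1 motif.
Gclm: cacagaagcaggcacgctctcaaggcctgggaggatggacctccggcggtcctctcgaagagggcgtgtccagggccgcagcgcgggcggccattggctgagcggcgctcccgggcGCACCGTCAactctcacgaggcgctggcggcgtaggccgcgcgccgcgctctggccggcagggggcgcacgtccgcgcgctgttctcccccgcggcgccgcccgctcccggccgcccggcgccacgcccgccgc
Srxn1: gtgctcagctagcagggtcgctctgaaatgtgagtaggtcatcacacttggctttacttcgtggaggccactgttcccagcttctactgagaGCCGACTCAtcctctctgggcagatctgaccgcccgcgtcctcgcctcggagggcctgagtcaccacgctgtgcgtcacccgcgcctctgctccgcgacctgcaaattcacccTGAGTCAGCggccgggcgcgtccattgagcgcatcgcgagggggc

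The other matches are printed with 10 bases on each side, again in capitals, so that the elements of the members can be compared. They lie at -240 for *Nfe2l2* (chr2:75704885-75704913, minus strand), -92 for the second of 3 *Txnrd1* windows (chr10:82859104-82859132, plus strand), 29 for another match of *Srxn1* (chr2:152105542-152105570, plus strand), -97 for *Slc7a11* (chr3:50443692-50443720, minus strand) and -57 for *G6pdx* (chrX:74428919-74428947, minus strand). The *Nqo1* window held no match to these letters.
Nfe2l2: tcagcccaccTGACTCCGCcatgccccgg
Txnrd1: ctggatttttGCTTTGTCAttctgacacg
Srxn1: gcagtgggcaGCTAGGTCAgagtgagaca
Slc7a11: taatgttggcGCTTTCTCAagctggagtt
G6pdx: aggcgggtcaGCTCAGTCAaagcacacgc

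The 10 members did not move as a block. Against WT, the WT+ZnO NPs-labelled libraries had higher levels of both subunits of the enzyme that starts glutathione synthesis, *Gclc* and *Gclm*, and lower levels of *Hmox1*, *Srxn1*, *G6pdx* and *Nfe2l2*. In KO skin, ZnO NPs went with higher *Gclm* and lower *Slc7a11*, *Srxn1* and *Txnrd1*. KO differed from WT by higher *Slc7a11* and lower *G6pdx*. No member was called between the 2 groups given ZnO NPs. In all of these, fewer cells of a type and less RNA per cell cannot be told apart, since whole skin was sequenced.

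**Figure D1:**
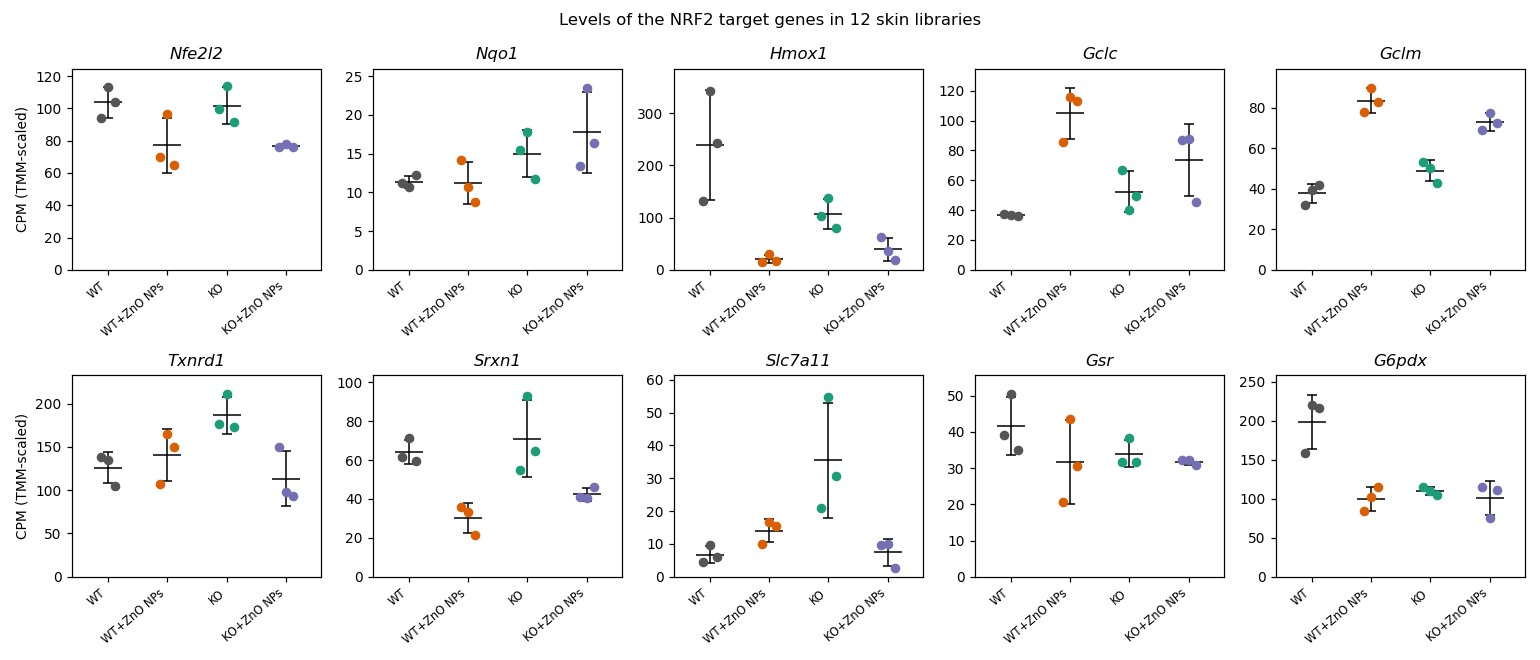
Level of each of the 10 genes in CPM on the vertical axis, for the 4 groups of 3 mice on the horizontal axis. Points are single libraries, and the bar and whiskers are the mean and SD. The *Hmox1* points of the WT+ZnO NPs-labelled libraries, at 15.6 to 30.2 CPM, sit far below those of WT at 132 to 342, while the *Gclm* points sit above those of WT.

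Calls were made from edgeR's quasi-likelihood test, at a Benjamini-Hochberg adjusted p below 0.05 over all 18822 genes. Between KO and WT, 2 of 10 members were called, where 8.18% of all genes tested were called. Of these members 1 was higher and 1 lower, beside 4.61% and 3.58% of all genes. In the WT+ZnO NPs-labelled libraries against WT, 6 of 10 were called, where the share of all genes was 43.0%. There 2 members were higher and 4 lower, beside 20.8% and 22.1%. Between KO+ZnO NPs and KO it was 4 of 10, against 14.7% of all genes, with 1 higher and 3 lower beside 6.57% and 8.09%. Between KO+ZnO NPs and the WT+ZnO NPs-labelled libraries it was 0 of 10, against 3.28% of all genes (2.13% higher and 1.16% lower). In that comparison *Nqo1* and *Srxn1* had an unadjusted p under 0.05, and DESeq2 also called 0, whether it was run on 12 libraries or on 6. The libraries of both groups did not overlap for 4 members above and 1 below in the first of these comparisons, 3 and 3 in the second, 1 and 5 in the third, and 1 and 2 in the fourth. Among all genes 18.6% were above and 19.9% below in the first (38.5% together), 30.1% and 29.3% in the second (59.4%), 17.0% and 17.7% in the third (34.7%), and 13.0% and 10.8% in the fourth (23.7%). The median log2 fold change of the members was 0.26, -0.21, -0.26 and 0.00 in these 4 comparisons, where the median of all genes was 0.01, 0.06, 0.01 and 0.04. The comparisons share groups, WT in the first and the second and KO in the first and the third, so their counts are not independent. Over the 4 comparisons 8 members were called at least once, and *Nqo1* and *Gsr* were not.

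These counts rested in part on single libraries. For KO against WT the count was 0 without WT replicate 2, WT replicate 3 or KO replicate 2, and 1 without WT replicate 1, KO replicate 1 or KO replicate 3. For KO+ZnO NPs against KO the count of 4 was 0 without KO replicate 2, 1 without KO replicate 3, and 2 without any 1 WT replicate or without KO+ZnO NPs replicate 2. For the WT+ZnO NPs-labelled libraries against WT it stayed between 5 and 7.

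**Figure D2:**
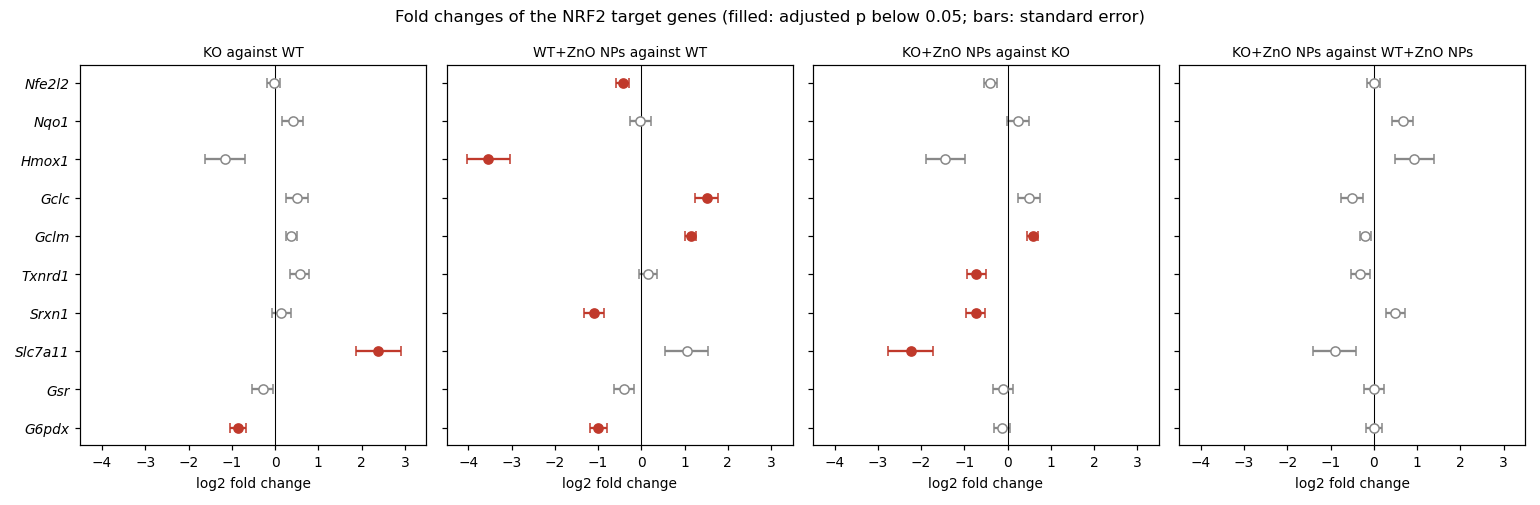
Log2 fold change (horizontal axis) of each of the 10 genes (vertical axis) in 4 comparisons, with whiskers for the standard error. Filled red points have an adjusted p below 0.05. *Hmox1* has the most negative value, -3.53, in the WT+ZnO NPs-labelled libraries against WT, and *Slc7a11* lies at 2.39 in KO against WT and at -2.24 in KO+ZnO NPs against KO.

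*Nfe2l2* (ENSMUSG00000015839, chr2:75675513-75704641, minus strand) encodes NRF2 itself. Its level was 94.1, 113 and 104 CPM in WT and 99.9, 114 and 91.3 CPM in KO. It was 69.8, 96.6 and 64.8 CPM in the WT+ZnO NPs-labelled libraries and 76.3, 78.2 and 76.3 CPM in KO+ZnO NPs. The groups without ZnO NPs were alike in range, the KO+ZnO NPs libraries all lay below KO, and the second library labelled WT+ZnO NPs overlapped WT. In the WT+ZnO NPs-labelled libraries it was lower than in WT, at -0.43 on the log2 scale (standard error [SE] 0.15, adjusted p = 0.0420 in edgeR's test). It was kept in 7 of 21 alternative analyses and lost, with an adjusted p of 0.0514 to 0.154, without WT replicate 2 or 3, replicate 1 or 3 of those labelled WT+ZnO NPs, KO replicate 1 or 2, or any 1 KO+ZnO NPs replicate. In KO skin the log2 fold change was -0.40 (SE 0.15, adjusted p = 0.0950), which did not pass, and passed at an adjusted p of 0.0444 without replicate 2 of the WT+ZnO NPs-labelled libraries.

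*Gclc* (ENSMUSG00000032350, chr9:77754535-77794485, plus strand) encodes the catalytic subunit of glutamate-cysteine ligase, the rate-limiting enzyme of glutathione synthesis. Its level was 37.4, 36.9 and 36.1 CPM in WT and 85.3, 116 and 113 CPM in the WT+ZnO NPs-labelled libraries. It was 67.1, 40.1 and 49.3 CPM in KO and 87.3, 87.9 and 45.4 CPM in KO+ZnO NPs. The WT libraries were tight and lay below all 9 others, whereas KO+ZnO NPs replicate 3 lay within the KO range. The rise in the WT+ZnO NPs-labelled libraries was 1.51 on the log2 scale (SE 0.26, adjusted p = 0.00116 in edgeR's test), and lost its call only when the presence of Y-linked transcripts entered the fit as a covariate (log2 fold change 1.02, adjusted p = 0.0507) among 21 alternatives. In KO skin the log2 fold change after ZnO NPs was 0.50 (SE 0.25, adjusted p = 0.203), and without KO+ZnO NPs replicate 3 it was 0.77 with an adjusted p of 0.0429.

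*Gclm* (ENSMUSG00000028124, chr3:122245557-122270732, plus strand), the modifier subunit of the same ligase, was measured at 32.2, 39.2 and 41.6 CPM in WT and 53.1, 50.4 and 43.0 CPM in KO. It reached 77.7, 89.9 and 83.0 CPM in the WT+ZnO NPs-labelled libraries and 69.0, 77.6 and 72.5 CPM in KO+ZnO NPs. Every library of the ZnO NP groups lay above every library without ZnO NPs. *Gclm* was the only member called higher with ZnO NPs in both genotypes as labelled, with a log2 fold change of 1.15 against WT (SE 0.13, adjusted p = 9.12e-05 in edgeR's test) and 0.58 against KO (SE 0.13, adjusted p = 0.0169). The first held in 21 of 21 alternatives and the second in 19 of 22. The second was lost without KO replicate 2 (adjusted p = 0.0601), without KO replicate 3 (0.0632) and with edgeR on only the groups compared (0.0561). *Gclm* overlaps the annotated genes *Gm17494* and *Gm6061*, and 3.92% of its 50-base stretches are shared with *Ppia* or other genes, so that some of its reads could have been counted elsewhere.

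*Slc7a11* (ENSMUSG00000027737, chr3:49892526-50443614, minus strand) encodes xCT, which brings cystine into the cell for glutathione synthesis. Its level was 4.45, 9.69 and 6.08 CPM in WT and 20.9, 54.7 and 30.6 CPM in KO. It was 10.1, 16.5 and 15.3 CPM in the WT+ZnO NPs-labelled libraries and 9.64, 10.1 and 2.74 CPM in KO+ZnO NPs. The KO libraries stood above all 9 others, with KO replicate 2 the highest, and the KO+ZnO NPs libraries lay around the WT range. KO exceeded WT by 2.39 on the log2 scale (SE 0.52, adjusted p = 0.0214 in edgeR's test), the largest fold change of a member in that comparison. KO+ZnO NPs lay below KO by a log2 fold change of -2.24 (SE 0.51, adjusted p = 0.0201). The WT+ZnO NPs-labelled libraries lay above WT without overlap, at 1.05 (SE 0.50, adjusted p = 0.111), which did not pass over all 12 libraries and passed at 0.0402 without KO+ZnO NPs replicate 3, at 0.0303 in edgeR and at 0.0122 in DESeq2 on only the groups compared.

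The effect of ZnO NPs on *Slc7a11* differed between the genotypes as labelled. The interaction of genotype and ZnO NPs was -3.29 on the log2 scale (SE 0.71, adjusted p = 0.0233 in edgeR's test), the only interaction called among the 10 members, where 8.68% of all genes were called, 5.08% positive and 3.59% negative. This call was lost without WT replicate 1 (adjusted p = 0.0511), WT replicate 3 (0.0597) or replicate 3 of the WT+ZnO NPs-labelled libraries (0.0584). When the presence of Y-linked transcripts entered the fit the call was lost at an adjusted p of 0.106, while the interaction was -3.42. The count of members with a called interaction was 2 without any 1 KO+ZnO NPs replicate. The rise in KO lost its call without WT replicate 1 (0.0722), WT replicate 2 (0.0522), WT replicate 3 (0.0789) or KO replicate 2 (0.0608), and in the 7 libraries without Y-linked transcripts (log2 fold change 2.66, adjusted p = 0.0549). The fall after ZnO NPs lost its call without KO replicate 2 (log2 fold change -1.77, adjusted p = 0.0828) and with edgeR on only the groups compared (-2.26, 0.0722). *Slc7a11* overlaps 5 other annotated genes.

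*Gsr* (ENSMUSG00000031584, chr8:33652523-33698163, plus strand) encodes glutathione reductase, which returns oxidised glutathione to its reduced form. Its level was 39.2, 50.4 and 35.1 CPM in WT, 31.8, 38.4 and 31.8 CPM in KO, 20.6, 43.7 and 30.5 CPM in the WT+ZnO NPs-labelled libraries and 32.2, 32.2 and 30.9 CPM in KO+ZnO NPs. The groups overlapped in all 4 comparisons. Log2 fold changes ran from -0.40 (SE 0.23, adjusted p = 0.194) in the WT+ZnO NPs-labelled libraries against WT to 0.01 between the 2 groups given ZnO NPs. Without replicate 2 of the WT+ZnO NPs-labelled libraries the former was -0.70, with an adjusted p of 0.0237.

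*Txnrd1* (ENSMUSG00000020250, chr10:82833951-82897712, plus strand) encodes the cytosolic thioredoxin reductase, the selenoenzyme that keeps thioredoxin reduced. Its level was 138, 135 and 105 CPM in WT and 176, 211 and 172 CPM in KO. It was 107, 165 and 149.8 CPM in the WT+ZnO NPs-labelled libraries and 149.7, 97.6 and 92.7 CPM in KO+ZnO NPs. All KO libraries lay above all 9 others. KO exceeded WT by 0.57 on the log2 scale without passing (SE 0.22, adjusted p = 0.127 in edgeR's test), and KO+ZnO NPs lay below KO by a log2 fold change of -0.72, which passed narrowly (SE 0.22, adjusted p = 0.0489). Its interaction of -0.88 (SE 0.30, adjusted p = 0.0944) passed at 0.0357 without KO+ZnO NPs replicate 1. The call after ZnO NPs held in 7 of 22 alternatives. It was lost without any 1 WT, KO or KO+ZnO NPs replicate other than KO+ZnO NPs replicate 1, and without replicate 2 or 3 of the WT+ZnO NPs-labelled libraries, at adjusted p of 0.0518 to 0.171. *Txnrd1* overlaps 3 annotated genes.

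*Srxn1* (ENSMUSG00000032802, chr2:152105516-152111376, plus strand) encodes sulfiredoxin, which repairs overoxidised peroxiredoxins. Its level was 61.8, 71.5 and 59.8 CPM in WT and 55.1, 93.2 and 64.6 CPM in KO. It was 36.0, 33.2 and 21.2 CPM in the WT+ZnO NPs-labelled libraries and 40.9, 40.4 and 46.4 CPM in KO+ZnO NPs. Every library given ZnO NPs lay below every library without them, the reverse of *Gclm*, whose promoter also holds the element. The log2 fold change was -1.09 against WT (SE 0.22, adjusted p = 0.00308 in edgeR's test) and -0.74 against KO (SE 0.22, adjusted p = 0.0486). The first was lost only when the presence of Y-linked transcripts entered the fit as a covariate (log2 fold change -0.80, adjusted p = 0.0948) among 21 alternatives. The second held in 10 of 22 alternatives and was lost, at adjusted p of 0.0586 to 0.190, without any 1 WT or KO+ZnO NPs replicate, without KO replicate 2 or 3, or without replicate 2 of the WT+ZnO NPs-labelled libraries. The WT+ZnO NPs-labelled libraries lay below all of KO+ZnO NPs, at a log2 fold change of 0.50 that did not pass (SE 0.22, adjusted p = 0.196).

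*Nqo1* (ENSMUSG00000003849, chr8:107388225-107403206, minus strand) encodes a quinone reductase and is widely used as a readout of NRF2. Its level was 11.2, 10.6 and 12.2 CPM in WT and 15.5, 17.8 and 11.8 CPM in KO. It was 14.1, 10.7 and 8.74 CPM in the WT+ZnO NPs-labelled libraries and 13.3, 23.5 and 16.3 CPM in KO+ZnO NPs. The groups overlapped in all 4 comparisons. Log2 fold changes were 0.41 in KO against WT (SE 0.25, adjusted p = 0.338 in edgeR's test), -0.02 in the WT+ZnO NPs-labelled libraries against WT (SE 0.25, adjusted p = 0.959), 0.24 in KO+ZnO NPs against KO (SE 0.25, adjusted p = 0.533) and 0.66 between the 2 groups given ZnO NPs (SE 0.25, adjusted p = 0.137). The sign in the WT+ZnO NPs-labelled libraries against WT flipped with library size scaling, at 0.08.

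*Hmox1* (ENSMUSG00000005413, chr8:75093621-75100589, plus strand) encodes haem oxygenase 1, which breaks down haem, is induced by NRF2 when haem removes BACH1, and is abundant in macrophages that take up red cells. Its level was 132, 342 and 242 CPM in WT and 103, 137 and 80.4 CPM in KO. It was 15.6, 30.2 and 16.0 CPM in the WT+ZnO NPs-labelled libraries and 62.8, 36.0 and 19.7 CPM in KO+ZnO NPs. Every library given ZnO NPs lay below every library without them, and WT and KO overlapped. The WT+ZnO NPs-labelled libraries lay below WT by a log2 fold change of -3.53 (SE 0.50, adjusted p = 0.000357 in edgeR's test), a call held in 21 of 21 alternatives. KO+ZnO NPs lay below KO by -1.44 (SE 0.46, adjusted p = 0.0581), which did not pass, passed in 5 of 22 alternatives, and passed at 0.0258 without KO+ZnO NPs replicate 1. KO against WT was -1.16 (SE 0.45, adjusted p = 0.136). The interaction of 2.10 (SE 0.64, adjusted p = 0.0672) did not pass, and passed at 0.0376 without KO+ZnO NPs replicate 3.

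*G6pdx* (ENSMUSG00000031400, chrX:74409483-74429194, minus strand) encodes glucose-6-phosphate dehydrogenase, the entry enzyme of the pentose phosphate pathway and a main source of NADPH. Its level was 159, 221 and 217 CPM in WT and 115, 109 and 105 CPM in KO. It was 83.8, 102 and 115 CPM in the WT+ZnO NPs-labelled libraries and 114, 75.1 and 112 CPM in KO+ZnO NPs. WT stood above all 9 others, whose ranges overlapped. The log2 fold change was -0.86 in KO against WT (SE 0.19, adjusted p = 0.0233 in edgeR's test) and -0.99 in the WT+ZnO NPs-labelled libraries against WT (SE 0.19, adjusted p = 0.00212), the latter held in 21 of 21 alternatives. The KO call was lost without WT replicate 2 (adjusted p = 0.102), WT replicate 3 (0.0788) or any 1 KO replicate (0.0589 to 0.0762), and in the 7 libraries without Y-linked transcripts (log2 fold change -0.89, adjusted p = 0.0854). ZnO NPs in KO skin gave -0.13 (SE 0.19, adjusted p = 0.674), and the interaction of 0.86 (SE 0.27, adjusted p = 0.0676) passed at 0.0292 without KO+ZnO NPs replicate 2. *G6pdx* is X-linked, overlaps *Ikbkg* and shares 6.46% of its 50-base stretches with *G6pd2* or other genes.

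Per kilobase of exons, the levels of the members kept a partly fixed order. In WT, *Hmox1* was highest at 136 ± 60.0 CPM per kb (SD, n = 3), above *G6pdx* at 64.5 ± 11.2, and both were apart from *Nfe2l2* at 27.3 ± 2.52. *Nfe2l2* and *Srxn1*, next at 22.8 ± 2.21, overlapped. In KO, *Hmox1* was again highest at 61.1 ± 16.4, without overlap with *G6pdx* at 35.6 ± 1.56. In the WT+ZnO NPs-labelled libraries, *Hmox1* stood at rank 6 with 11.8 ± 4.75, between *Gclm* and *Gsr* and overlapping both, and *G6pdx* led at 32.5 ± 5.03, overlapping *Gclc* at 27.8 ± 4.49. In KO+ZnO NPs, *G6pdx* at 32.6 ± 7.13 and *Hmox1* at 22.6 ± 12.4 overlapped. *Slc7a11* was lowest in all 4 groups, from 0.48 ± 0.19 in WT to 2.54 ± 1.25 in KO, and was apart from the next member in each.

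Across the 12 libraries the members fell into sets with opposite patterns. Of 45 pairs, 10 had a Pearson r of log2 CPM above 0.5 and 9 below -0.5. These values describe 12 libraries that share groups and treatment, and carry no test. *Gclc* and *Gclm* went together (r = 0.86), as did *Nfe2l2* with *Hmox1* (0.86) and *Srxn1* (0.82), and *Txnrd1* with *Slc7a11* (0.82). *Gclc* ran against *Srxn1* (r = -0.86) and *Gclm* against *Hmox1* (r = -0.86). *Nqo1* was close to none of the glutathione genes, at -0.05 with *Gclc* and 0.18 with *Gclm*.

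**Figure D3:**
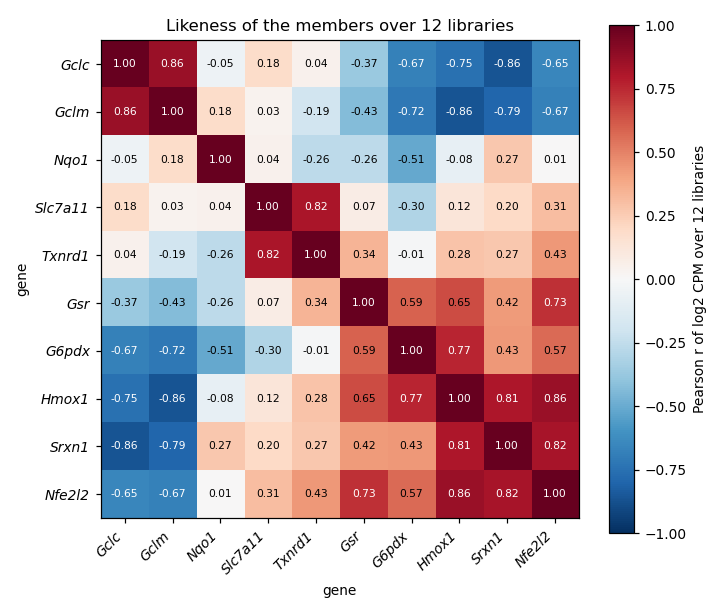
Pearson r of log2 CPM over the 12 libraries for each pair of the 10 genes, from -1 in blue to 1 in red, with the value in each cell. *Gclc* and *Gclm* form a red corner, and both are blue against *Hmox1*, *Srxn1* and *Nfe2l2*.

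Over the 11268 genes whose mean reached 10 CPM, the patterns most like *Nfe2l2* over the 12 libraries were those of *Plek* (r = 0.94), *Ccl12* (0.94) and *Il17ra* (0.94). Those most like *Hmox1* were *Folr2* (0.98), *Selenop* (0.98) and *Ppp1r21* (0.98). For *Nqo1* they were *Trappc10* (0.92), *Slc2a1* (0.91) and the basal keratin *Krt14* (0.91).

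Markers of macrophages moved with several members. The 8 markers *Adgre1*, *Cd68*, *Csf1r*, *Mrc1*, *Cd163*, *C1qa*, *C1qb* and *C1qc* summed to 2513 to 3852 CPM in WT, 1555 to 2659 in KO, 163 to 334 in the WT+ZnO NPs-labelled libraries and 265 to 628 in KO+ZnO NPs, and none was at 0 in all libraries. All 8 of 8 were called lower in the WT+ZnO NPs-labelled libraries than in WT and in KO+ZnO NPs than in KO, and 0 of 8 were called between KO and WT by edgeR's test. Over the 12 libraries the r with the mean log2 CPM of these markers was 0.98 for *Hmox1*, 0.86 for *Srxn1*, 0.86 for *Nfe2l2*, -0.90 for *Gclm* and -0.79 for *Gclc*, and -0.01 for *Nqo1*. Their part in the fold changes of *Hmox1*, *Srxn1* and *Nfe2l2* was not tested.

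**Figure D4:**
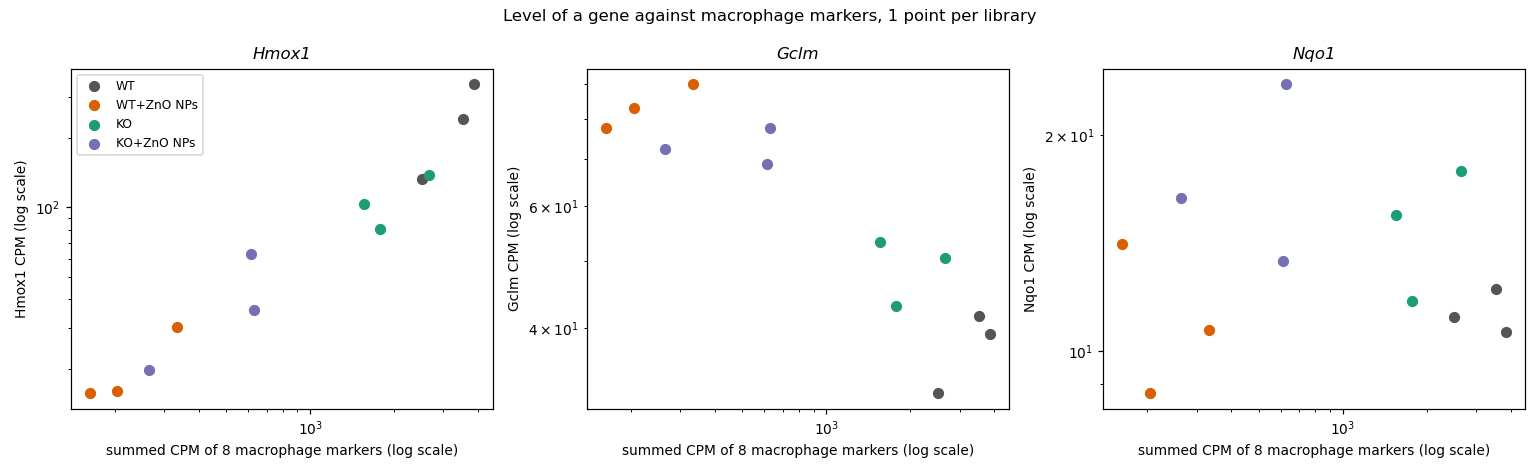
Level of *Hmox1*, *Gclm* and *Nqo1* (vertical axes, CPM, log scale) against the summed CPM of 8 macrophage markers (horizontal axis, log scale), 1 point per library, coloured by group. *Hmox1* climbs with the markers from 15.6 CPM in a library labelled WT+ZnO NPs to 342 in WT, *Gclm* declines, and *Nqo1* shows no slope.

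Other cell types of the skin also moved. The 7 detected markers of the growing (anagen) hair follicle summed to 4.77 to 9.82 CPM in WT and to 1017 to 5008 CPM in the WT+ZnO NPs-labelled libraries. They summed to 11650, 23.0 and 3392 CPM in KO replicates 1 to 3 and to 8501, 6252 and 210 CPM in those of KO+ZnO NPs. The sum was thus spread widely within the KO and KO+ZnO NPs groups, and 7 of 7 markers were called higher in KO and in the WT+ZnO NPs-labelled libraries than in WT. The r over 12 libraries with this list was 0.87 for *Gclc* and 0.74 for *Gclm*. The library with the lowest anagen sum of its group also had the lowest *Gclc* of that group in KO (replicate 2, 40.1 CPM) and in KO+ZnO NPs (replicate 3, 45.4 CPM). For *Slc7a11* the library with the lowest anagen sum had the highest level of its group in KO (54.7 CPM) and the lowest in KO+ZnO NPs (2.74 CPM) and among the WT+ZnO NPs-labelled libraries (10.1 CPM). Melanocyte markers summed to 53.9 to 70.4 CPM in WT and 395 to 1184 CPM in the WT+ZnO NPs-labelled libraries, 5 of 6 called higher and 1 lower. They summed to 80.5 to 232 CPM in KO and 305 to 484 CPM in KO+ZnO NPs without overlap, where the one marker called was *Mitf*, lower at -0.55 on the log2 scale. The melanocyte list had an r of 0.91 for both *Gclc* and *Gclm*. Neutrophil markers summed to 198 to 247 CPM in WT, 125 to 650 CPM in KO (the highest in replicate 2), 8.96 to 67.8 CPM in the WT+ZnO NPs-labelled libraries and 16.6 to 68.4 CPM in KO+ZnO NPs. In KO replicate 2 most of the sum came from *S100a8* (273 CPM) and *S100a9* (319 CPM), and the marker *Ly6g* did not pass the filter. Of 5 tested, *S100a9* (log2 fold change -3.69) and *Cxcr2* (-4.34) were lower and *Mpo* (5.62) higher in the WT+ZnO NPs-labelled libraries than in WT, and the list had an r of 0.93 with *Nfe2l2*. Keratinocyte markers split in that comparison, with the basal *Krt5* (0.95) and *Trp63* (1.62) higher and the differentiation markers *Krt1* (-2.12), *Krt10* (-2.31) and *Lor* (-2.55) lower. *Trp63* was also higher in KO than in WT (1.17). Their sum was 8122 to 12044 CPM in WT and 13893 to 25789 CPM in KO, without overlap. The r of the keratinocyte list was 0.62 with both *Nqo1* and *Srxn1*. Fibroblast markers summed to 7049 to 13902 CPM in WT, 23166 to 37282 CPM in KO and 15751 to 21472 CPM in KO+ZnO NPs, and KO overlapped neither of the others. In the WT+ZnO NPs-labelled libraries the sum was 7678 to 33420 CPM, which overlapped KO. Of 6 markers 0 were called in KO against WT, where *Dcn* (-0.21) and *Pdgfra* (-0.03) were not higher. Against WT, the WT+ZnO NPs-labelled libraries had 1 higher and 2 lower. The one marker called in KO+ZnO NPs against KO was *Pdgfra*, lower by a log2 fold change of -1.28, and the r with the list was 0.47 for *Slc7a11* and 0.48 for *Txnrd1*. Mitochondrial transcripts took 2.42% to 3.20% of the counts without ZnO NPs and 3.66% to 5.29% with them. Of the endothelial and adipocyte markers 5 of 5 and 5 of 8 were lower in the WT+ZnO NPs-labelled libraries than in WT, and 0 higher. In KO+ZnO NPs against KO, 4 of 6 sebocyte markers were higher and 0 lower. Skeletal muscle markers summed to 1716 to 5878 CPM in KO, below 5755 to 6938 CPM in WT apart from KO replicate 1, and to 3400 to 18399 CPM in KO+ZnO NPs. The r over 12 libraries with the muscle list was -0.83 for *Txnrd1* and -0.70 for *Slc7a11*, and with the sebocyte list it was -0.57 and -0.65. The part of these lists in the results was not tested.

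Beyond the 10 members, 56 further genes of the pathway were listed by role and 55 were tested, which leaves out *Gstm3*. In KO against WT 1 was called higher and 5 lower, in the WT+ZnO NPs-labelled libraries against WT 6 higher and 20 lower, in KO+ZnO NPs against KO 5 higher and 1 lower, and in KO+ZnO NPs against those labelled WT+ZnO NPs 4 higher and 0 lower. As a share these were 10.9%, 47.3%, 10.9% and 7.27%, beside 8.18%, 43.0%, 14.7% and 3.28% of all genes. The median log2 fold change of the 55 was -0.20, -0.32, 0.13 and 0.34. Counts outside 1.5 times the main count were given by leaving out 1 library. For KO against WT the count was 2 without WT replicate 2, 3 without WT replicate 3 or KO replicate 1 and 11 without KO+ZnO NPs replicate 3. For KO+ZnO NPs against KO it was 1 without KO replicate 2, 2 without KO replicate 3 and 10 without KO+ZnO NPs replicate 1. For KO+ZnO NPs against the WT+ZnO NPs-labelled libraries it was 0 without replicate 3 of the latter, 1 without KO+ZnO NPs replicate 1, 2 without WT replicate 2 or 3, KO replicate 3, or replicate 1 or 2 of the latter, and 7 without KO+ZnO NPs replicate 3.

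Of the regulators of NRF2, *Keap1*, *Cul3*, *Nfe2l1*, *Maff* and *Mafk* were called in none of the comparisons. In the WT+ZnO NPs-labelled libraries against WT, 2 of 10 regulators were higher and 2 lower, a share of 40% called beside 43.0% of all genes. *Bach2*, a relative of BACH1, was measured at 5.29, 6.07 and 5.10 CPM in WT and 14.1, 22.2 and 34.6 CPM in the WT+ZnO NPs-labelled libraries, a log2 fold change of 2.11 (SE 0.56, adjusted p = 0.0120 in edgeR's test). *Mafg*, a small MAF partner, was also higher (log2 fold change 0.56), while the repressor *Bach1* (-0.93) and *Sqstm1* (-0.69), whose product p62 sequesters KEAP1, were lower. In KO+ZnO NPs against KO the one regulator called was *Rbx1*, a subunit of the CUL3 ligase, at 0.56.

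Genes of iron and haem handling act on haem, which HMOX1 breaks down, or on the products. In the WT+ZnO NPs-labelled libraries 5 of 6 were lower than in WT and 0 higher, beside 22.1% and 20.8% of all genes. *Ftl1*, the ferritin light chain, was measured at 1291, 1590 and 1049 CPM in WT and 221, 315 and 281 CPM in the WT+ZnO NPs-labelled libraries (log2 fold change -2.27, SE 0.26, adjusted p = 0.000104 in edgeR's test). In KO, at 469, 811 and 620 CPM, it lay below WT by -1.05 (SE 0.25, adjusted p = 0.0300). *Blvra*, biliverdin reductase A, fell from 53.3, 63.8 and 57.6 CPM in WT to 24.7, 32.3 and 30.6 CPM in KO (log2 fold change -0.997, SE 0.14, adjusted p = 0.00344). *Blvrb*, the other biliverdin reductase, was also called lower in KO. In KO+ZnO NPs against KO, 0 of 6 were called by edgeR's test. *Ftl1* shares 50.9% of its 50-base stretches with other genes, so its counts are uncertain.

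Among the glutathione genes, *Ggt1*, the gamma-glutamyl transferase that breaks down extracellular glutathione, had the largest differences of KO and of the WT+ZnO NPs-labelled libraries from WT. It was measured at 0.25, 0.04 and 0.25 CPM in WT, 14.7, 32.8 and 33.8 CPM in the WT+ZnO NPs-labelled libraries, 14.5, 1.37 and 7.70 CPM in KO and 21, 20.8 and 1.79 CPM in KO+ZnO NPs. The log2 fold change was 5.45 in KO against WT (SE 1.18, adjusted p = 0.0218 in edgeR's test) and 7.23 in the WT+ZnO NPs-labelled libraries against WT (SE 1.23, adjusted p = 0.00113). The near-zero WT level makes these folds imprecise, and the lowest *Ggt1* of KO and of KO+ZnO NPs was in the library with the lowest anagen sum of its group. *Gstp1*, a glutathione S-transferase, was lower in KO than in WT (log2 fold change -0.85) and higher in KO+ZnO NPs than in KO (0.58), with 33.7% of its 50-base stretches shared with *Gstp2* or other genes. *Gpx4*, which reduces lipid peroxides, was higher in KO+ZnO NPs than in KO (log2 fold change 1.02, SE 0.23, adjusted p = 0.0197), with 34.7% shared. *Gstt2*, a theta-class transferase, was lower in that comparison (-0.91).

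Between the 2 groups given ZnO NPs, where no member was called, 1 of 7 thioredoxin genes and 3 of 10 detoxification genes were called, all higher in KO+ZnO NPs, beside 2.13% of all genes. *Txnip*, the inhibitor of thioredoxin, was measured at 355, 283 and 281 CPM in the WT+ZnO NPs-labelled libraries and 917, 1523 and 593 CPM in KO+ZnO NPs (log2 fold change 1.72, SE 0.29, adjusted p = 0.0292 in edgeR's test). The detoxification genes were the carbonyl reductase *Cbr3* at 1.40, the aldo-keto reductase *Akr1b8* at 1.36 and the pirin gene *Pir*, which is X-linked, at 1.04 on the log2 scale. These were lower in the WT+ZnO NPs-labelled libraries than in WT, where *Akr1b8* went from 37.7, 74.9 and 49.7 CPM to 12.2, 11.4 and 9.49 CPM (log2 fold change -2.29, SE 0.27, adjusted p = 0.000130). *Aldh3a1*, an aldehyde dehydrogenase, was higher in KO+ZnO NPs than in KO (log2 fold change 1.83, SE 0.53, adjusted p = 0.0422). Of the 5 NADPH genes besides *G6pdx*, the only call was *Idh1*, lower in the WT+ZnO NPs-labelled libraries than in WT at -0.75.

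**Figure D5:**
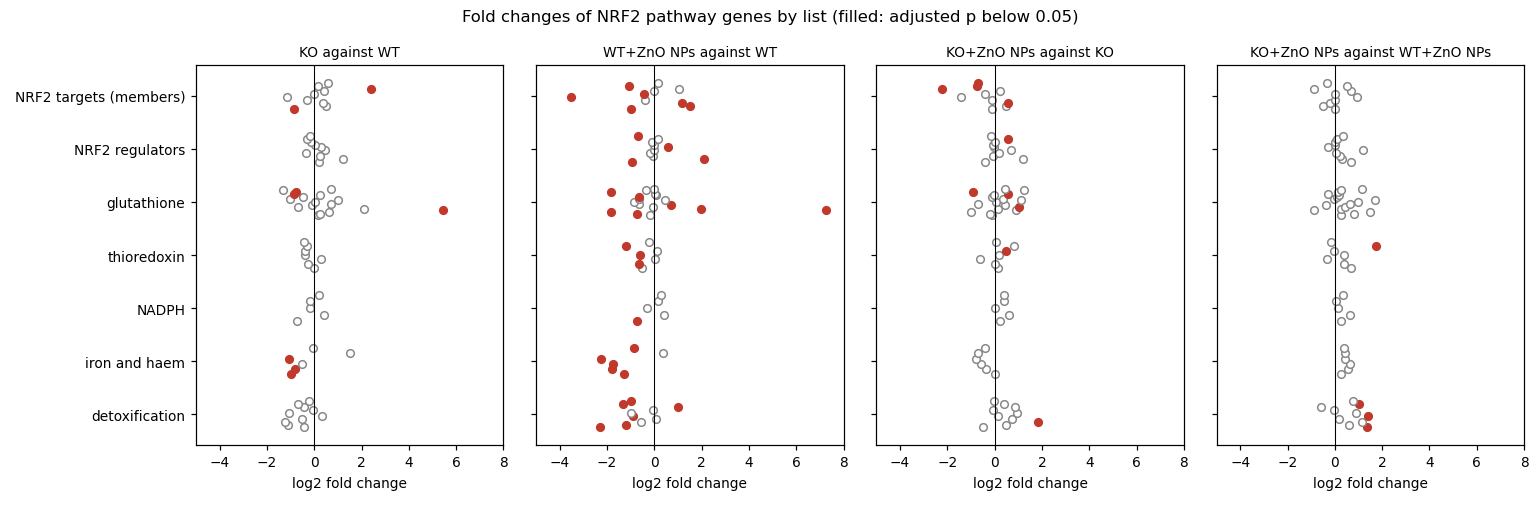
Log2 fold change (horizontal axis) of each tested gene in the member list and 6 further lists (vertical axis) in 4 comparisons, 1 point per gene, filled red at an adjusted p below 0.05. In the WT+ZnO NPs-labelled libraries against WT most red points lie left of 0, with all 5 red iron and haem genes among them, and *Ggt1* lies far right at 7.23.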

How the data were processed

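RNA-seq counts of skin from 4 groups of 3 mice were analysed. Per the paper, reads were filtered, aligned with STAR and counted with HTSeq. The submitters' processing notes instead name HISAT2 2.0.5 and the build mm10, and the 2 sources also differ on the library kit and sequencer. Annotation release and strand setting are not given in the sources used here. The authors deposited whole-number counts per gene without normalization, and HTSeq by default drops reads that overlap several genes. Of 52636 genes, 52489 were matched to GENCODE M21 on GRCm38, and 0 rows named no gene.

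The deposited counts were tested in R 4.3.3 with edgeR 4.0.16 (quasi-likelihood test, TMM factors, filterByExpr, 1 coefficient per group, all 12 libraries in 1 fit, common dispersion 0.109). P-values were adjusted by Benjamini-Hochberg over the 18822 genes kept, and a gene was called below 0.05. Standard errors are approximate, since they were derived from each fold change and its F value. Correlations used log2 CPM with a prior count of 2. Marker lists were scored as the mean log2 CPM of their tested genes.

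The alternatives tried were DESeq2 1.42.0 on all libraries or the groups compared, edgeR on the groups compared, RLE factors, library sizes without factors, no filter, at least 10 counts in every library, a replicate block, Y-linked transcripts (present or absent) as a covariate and leaving out each library. All WT libraries lacked these transcripts and all those labelled WT+ZnO NPs held them. Their effect was therefore estimated from the KO and KO+ZnO NPs groups and taken as the same in WT. The covariate thus cannot by itself separate these transcripts from treatment in the comparison of the WT and WT+ZnO NPs-labelled groups. The analysis of only the 7 libraries without Y-linked transcripts was chosen after seeing the data. Replicates differed by more than sampling noise, and were kept as 3 mice per group. The steps were tested on simulated counts.

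The members, gene lists and tests were chosen with earlier results of these data known. Named were all 10 members, in each comparison the 4 called genes of the other pathway lists with the largest fold change, and the 3 genes most like *Nfe2l2*, *Nqo1* and *Hmox1*. The other genes of these lists were named after their values were seen.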

Additional observations from a re-analysis of the deposited data

Results flagged for a closer look

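The effect of ZnO NPs differed between the genotypes as labelled for 11 genes among the 10 members and the 55 further pathway genes tested. This was read from the interaction term of edgeR's quasi-likelihood test with an adjusted p below 0.05, where 8.68% of all genes were called. Cell type markers had called interactions too, negative for 6 of 7 anagen follicle, 3 of 6 melanocyte and 1 of 5 neutrophil markers. They were positive for 3 of 8 macrophage, 2 of 5 endothelial and 1 of 8 adipocyte markers. The part of these cell types in the interactions was not tested. On the log2 scale the interaction was -3.29 for *Slc7a11*, which lay above WT in the WT+ZnO NPs-labelled libraries and below KO in KO+ZnO NPs. It was -6.35 for *Ggt1* and -0.59 for *Mafg*, which were higher in the WT+ZnO NPs-labelled libraries than in WT and were not called in KO skin. *Gstt2* (0.91), the iron and haem genes *Ftl1* (1.49), *Blvra* (1.27) and *Blvrb* (1.41), the detoxification genes *Akr1b8* (1.81), *Cbr3* (1.06) and the X-linked *Pir* (1.73), and the thioredoxin inhibitor *Txnip* (2.03) had positive interactions, and each was lower in the WT+ZnO NPs-labelled libraries than in WT. Of these genes with a positive interaction, *Gstt2* was also called lower in KO+ZnO NPs than in KO, and the other 7 were not called in that comparison. The 10 of these among the further pathway genes became 4 without WT replicate 2 or WT+ZnO NPs replicate 3, 6 without KO replicate 1 and 5 without KO replicate 3. With the presence of Y-linked transcripts in the model 0 of the 55 further pathway genes and 0 of the 10 members had a called interaction, although that of *Slc7a11* was then -3.42 (adjusted p = 0.106 in edgeR's test). The group labelled WT+ZnO NPs, on which each interaction rests, is the one whose *Cdc42* level lay below WT and KO, which puts its label in doubt.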

How the results depend on the processing

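Of 277 recomputed values of the 13 called member results, 214 kept their call, 63 lost it and 0 reversed. Over all members 909 of 1050 recomputed values kept direction and side of the threshold. *Gclm*, *Hmox1* and *G6pdx* kept their calls for WT+ZnO NPs-labelled skin against WT in 21 of 21 alternatives. Y-linked transcripts separate these groups fully, so the alternative with them as a covariate takes their effect from KO and KO+ZnO NPs and is no separate check in this comparison. With the presence of Y-linked transcripts in the model (the covariate) the members called in that comparison went from 6 to 3 and the further pathway genes from 26 to 16, and the interactions from 1 to 0 and from 10 to 0, while the interaction of *Slc7a11* went from -3.29 to -3.42 (adjusted p = 0.106 in edgeR's test).

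In KO against WT, members called went from 2 to 4 with DESeq2 on the groups compared and to 0 in the 7 libraries without Y-linked transcripts (0 to 2 leaving out 1 library). Pathway calls went from 6 to 14 (DESeq2, all libraries), 24 (DESeq2, groups compared), 14 (edgeR, groups compared) and 3 (those 7 libraries), or 2 to 11 leaving out 1 library. In KO+ZnO NPs against KO, members called went from 4 to 0 with edgeR on the groups compared and to 2 with the replicate block (0 to 4 leaving out 1 library), and pathway calls from 6 to 12 (DESeq2, all libraries), 0 (edgeR, groups compared) and 3 (no filter), or 1 to 10. Between both ZnO NP groups, pathway calls went from 4 to 11 (DESeq2, all libraries), 0 (edgeR, groups compared) and 0 (covariate), or 0 to 7. Members with a called interaction went from 1 to 2 with library size only, 4 with DESeq2 and 2 with a minimum of 10 counts (0 to 2 leaving out 1 library), and pathway calls from 10 to 18 with DESeq2 (4 to 14). The causes were not tested.

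Signs turned only for results that were not called. *Nqo1* in WT+ZnO NPs-labelled skin against WT became 0.0812 with library size, 0.0237 with edgeR on the groups compared, 0.000259 with a minimum of 10 counts and 0.23 with the covariate (-0.22 to 0.13 leaving out 1 library), and *Txnrd1* there -0.12 with the covariate. Between both ZnO NP groups, *Nfe2l2* became 7.19e-05 without the filter and 0.0178 with the replicate block (-0.11 to 0.20). *Gsr* there became -0.0205 (RLE), -0.15 (library size), -0.0135 and -0.0066 (DESeq2 on all libraries and on the groups compared), -0.0247 (edgeR on the groups compared), -0.0157 (minimum of 10 counts) and -0.0300 (covariate), or -0.23 to 0.32. *G6pdx* there became -0.0177, -0.14, -0.0101, -0.0091, -0.0249 and -0.0158 in the first 6 of these, or -0.11 to 0.16. The interaction of *Nfe2l2* became -0.12 (library size), -0.0116 (minimum of 10 counts) and -0.0026 (covariate), or -0.0816 to 0.23, and that of *Nqo1* -0.0079 (covariate), or -0.0196 to 0.46. Leaving out 1 library, *Srxn1* in KO against WT ran from -0.0926 to 0.29 and *Nfe2l2* from -0.10 to 0.0440, and in KO+ZnO NPs against KO *G6pdx* ran from -0.23 to 0.0633 and *Gsr* from -0.15 to 0.00952.

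Whether replicate numbers pair the mice was not settled by correlations of deviations from the group mean. Same-numbered deviations correlated at 0.43, 0.16 and 0.05 between KO and KO+ZnO NPs, beside -0.41 to 0.28 for differing numbers. In no comparison did all same-numbered values exceed 0.1. Besides the members in KO+ZnO NPs against KO, the block moved no count of calls by over 1.5 times. Genes called among all tested went from 1540 to 3003, 4522, 2794 and 962 in KO against WT (DESeq2 on all libraries, DESeq2 and edgeR on the groups compared, covariate) and to 694 without the Y-linked libraries, from 8085 to 3896 in WT+ZnO NPs-labelled skin against WT (covariate), and from 2759 to 4236 and 571 in KO+ZnO NPs against KO (DESeq2 on all libraries, edgeR on the groups compared). Between both ZnO NP groups they went from 618 to 2287, 0, 284 and 1 (DESeq2 on all libraries, edgeR on the groups compared, no filter, covariate), and for the interaction from 1633 to 3129, 1086 and 125 (DESeq2, no filter, covariate). Leaving out 1 library, genes called among all tested ran from 377 (without WT replicate 2) to 2060 (without KO+ZnO NPs replicate 3) in KO against WT, from 5942 to 9095 in WT+ZnO NPs-labelled skin against WT, from 451 (without KO replicate 2) to 3195 in KO+ZnO NPs against KO, from 1 (without WT+ZnO NPs replicate 3) to 1609 (without KO+ZnO NPs replicate 3) between both ZnO NP groups, and from 461 (without WT replicate 2) to 1646 for the interaction, so that the shares of all genes set beside the members move as well. With 3 mice a group, no difference of *Nqo1* or *Gsr* passed edgeR's test over the 12 libraries.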
